A study of Mus musculus with 52 samples.

Results

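The genes described here are the core subunits and the silencing partners of the HUSH complex together with the paralogs of its ATPase MORC2, followed through 7 organs and cultured embryonic fibroblasts of mice with and without the Tug1 locus. They were chosen by gene name and are 9 of the 39144 genes listed in the deposited expression tables: Mphosph8, Fam208a, Pphln1, Setdb1, Trim28, Atf7ip, Morc1, Morc2b and Morc3. The rule used their names and no measured value. Morc2a, the MORC2 gene that neighbours Tug1, is quoted only as context.

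Poly(A) RNA was sequenced from male mice that were wild type or homozygous for Tug1_tm1.1Vlcg (Tug1-/-), an allele in which the gene body is replaced by lacZ while the promoter and the first exon remain. Of 52 samples in the series, 46 lie behind the tables, with testes from 4 wild-type, 4 Tug1-/- and 3 rescue mice. Spleen, liver, heart, eyes and mouse embryonic fibroblasts (MEFs, at passage 2) had 3 samples of each genotype, and prostate had 3 wild-type and 2 Tug1-/- samples. Rescue mice were Tug1-/- and also carried tg(Tug1), a tetracycline-responsive transgene of a Tug1 isoform without the 5′ part, and CAGs-rtTA3, its doxycycline-dependent activator driven by the ubiquitous CAG promoter. By the study's methods rescue mice were kept on doxycycline food from conception on, and whether the Tug1-/- testes came from mice on that diet is not given in the sources used here, so transgene and drug cannot be told apart. By the labels the Tug1-/- and rescue testes carried both Neo and LacZ on C57BL/6J and the wild-type testes were C57BL/6J without Neo, whereas organs and MEFs of both genotypes came from a C57BL/6J/129S6 stock without Neo. The study's methods instead describe removal of the neomycin cassette from the colony by crossing to a cre strain, so whether the Tug1-/- and rescue testes carried it is unsettled in the sources used here. If they did, it cannot be told apart from the genotype in testes. MEFs were grown from littermate embryos, and the age of the adult mice is not given in the sources used here. The brain rows come from libraries that are not among the listed samples. Testes of F1 hybrid mice, 6 samples, were not analysed here.

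The tables give 1 value per genotype and tissue, the authors' mean in TPM, which counts transcripts relative to all transcripts of a library after division by gene length. The columns used here hold no value of a single sample, no standard deviation and no read depth per sample. Every value below is therefore a group mean without an error. No difference was tested, and "higher" and "lower" describe means only. The log2 ratio is that of 2 group means after adding 0.1 TPM to each, over genes whose 2 means averaged at least 1 TPM, and a difference of more than 1.5-fold in either direction was counted as large. In these bulk tissues, fewer cells of a type and less RNA per cell cannot be told apart.

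The targeted gene bore out the labels. Tug1 averaged 40.1 TPM in wild-type testes, 0.885 in Tug1-/- testes and 1.60 in rescue testes, and its log2 ratio, Tug1-/- over wild type, lay between -5.35 in testes and -8.39 in spleen over the 8 tissues. Of 32 tissue marker genes, 31 had their highest wild-type level in the tissue they mark, the exception being Slc17a7, a brain marker that was higher in eyes.

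HUSH (human silencing hub) is a nuclear complex that keeps retrotransposons, integrated retroviruses and some intronless transcripts silent. It consists of MPP8 (Mphosph8), which reads trimethylated lysine 9 of histone H3 (H3K9me3), the scaffold TASOR (Fam208a) and the RNA-binding Periphilin (Pphln1), and it recruits the H3K9 methyltransferase SETDB1, which is stabilised by ATF7IP. TRIM28, also called KAP1, is the corepressor through which KRAB zinc-finger proteins bring SETDB1 to transposable elements. MORC proteins are ATPases that compact chromatin: MORC2 works with HUSH, MORC1 silences transposons in the male germ line, MORC2B is needed in meiosis, and MORC3 sits at H3K4-methylated chromatin and PML nuclear bodies.

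In the deposited annotation (mm10) the 9 genes are protein-coding and lie apart from Tug1, which is on chromosome 11. Mphosph8 spans chr14:56668248-56697430 and Fam208a chr14:27428834-27483555, both on the plus strand. Pphln1 spans chr15:93398350-93491913 on the plus strand and Setdb1 chr3:95323525-95357202 on the minus strand. Trim28 lies at chr7:12999114-13031035 and Atf7ip at chr6:136506167-136610862, both on the plus strand. Among the MORC genes, Morc1 occupies chr16:48431237-48630905 and Morc3 chr16:93832121-93876072 on the plus strand, and Morc2b occupies chr17:33135588-33139683 on the minus strand. Morc2a begins at chr11:3649494 on the plus strand and overlaps the 5′ end of Tug1, which spans chr11:3639785-3649673 on the minus strand.

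Most members had CpG-rich promoters. RefSeq promoter windows (GRCm38.p6, 250 bases before to 50 bases after the start) were found for 8 of the 9 members (not for Morc1), with Fam208a under its newer symbol Tasor, and 9 of their 10 windows held more CpG dinucleotides than the median window, which holds 7, as did 48.7% of all 32851 windows. Both Pphln1 windows stood at the upper end with 53 and 52 CpGs, and the others with 1 window each held 32 in Fam208a, 29 in Atf7ip, 28 in Mphosph8, 23 in Trim28, 20 in Morc3 and 15 in Setdb1. Morc2b has a window with 13 CpGs at the start of its annotated gene and another, farther upstream, with 0, as in 5.43% of all windows. The 250 bases before the start are shown for Trim28, the most abundant member in every tissue, and for both Morc2b windows, the gene listed far higher in testes than elsewhere, with each CpG in capitals. They lie at chr7:13023902-13024151 on the plus strand, chr17:33139684-33139933 on the minus strand and chr17:33148750-33148999 on the minus strand, in that order. The start is the one in RefSeq. For Trim28 and Atf7ip the window lies inside the annotated gene span given above, downstream of where that span begins.
Trim28: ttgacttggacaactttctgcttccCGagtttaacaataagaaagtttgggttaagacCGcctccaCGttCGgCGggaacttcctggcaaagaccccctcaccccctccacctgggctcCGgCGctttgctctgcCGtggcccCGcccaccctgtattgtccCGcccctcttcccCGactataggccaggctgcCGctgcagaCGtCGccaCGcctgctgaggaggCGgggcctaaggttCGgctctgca
Morc2b, window at the gene start: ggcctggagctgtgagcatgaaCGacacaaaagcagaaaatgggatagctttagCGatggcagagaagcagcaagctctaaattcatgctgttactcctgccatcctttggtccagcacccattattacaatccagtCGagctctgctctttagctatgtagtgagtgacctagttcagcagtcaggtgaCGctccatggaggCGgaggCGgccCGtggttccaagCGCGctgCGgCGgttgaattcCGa
Morc2b, window farther upstream: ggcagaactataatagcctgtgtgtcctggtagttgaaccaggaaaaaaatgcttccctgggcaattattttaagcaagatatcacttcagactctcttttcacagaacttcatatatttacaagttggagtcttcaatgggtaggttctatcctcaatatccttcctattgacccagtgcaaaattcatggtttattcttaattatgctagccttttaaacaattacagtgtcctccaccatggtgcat
Of the 12 CpGs printed for the first Morc2b window, 9 lie in the last 100 bases before the start, compared with 8 of 17 for Trim28. Neither DNA methylation nor factor binding was measured, so these counts are a description of the sequence.

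Mphosph8, the H3K9me3 reader of HUSH, was present in all 8 tissues and highest in testes, at 88.0 TPM in wild type. From there its wild-type mean descended through 77.9 TPM in brain, 46.0 in eyes, 44.3 in spleen, 40.7 in MEFs, 22.9 in prostate and 12.8 in heart to 9.45 in liver, a 9.31-fold range. Tug1-/- means in the same order were 94.1, 77.0, 47.0, 38.4, 40.1, 26.6, 13.6 and 11.9 TPM. Among neighbours in that order, only spleen and MEFs had ranges between the genotype means that overlapped.

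Fam208a, the scaffold, was the least abundant core subunit in all 8 tissues. It was highest in spleen, at 24.3 TPM in wild type and 23.3 in Tug1-/-, and next in eyes, at 22.0 and 21.5 TPM. Brain had 16.5 TPM in wild type and 18.9 in Tug1-/-, testes 15.4 and 16.3, prostate 12.4 and 15.0, MEFs 7.56 and 9.30, liver 6.75 and 7.73, and heart 3.68 and 4.54. The genotype means of MEFs and liver overlapped, and the wild-type levels spanned 6.61-fold.

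Pphln1, the RNA-binding subunit, peaked in MEFs rather than in an organ, at 61.7 TPM in wild type and 62.2 in Tug1-/-. Testes followed with 47.3 and 50.7 TPM, brain with 45.8 and 41.0, eyes with 40.7 and 36.7, and spleen with 35.1 and 33.9. It was lower in prostate, at 16.5 and 17.4 TPM, in liver, at 11.3 and 11.0, and in heart, at 9.82 and 11.1, the last pair overlapping between genotypes.

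The 3 core subunits thus did not keep a fixed proportion at the RNA level. In wild type the ratio of Mphosph8 to Fam208a in TPM ran from 1.40 in liver to 5.72 in testes, and that of Pphln1 to Fam208a from 1.34 in prostate to 8.16 in MEFs. Summed over the 3 subunits, wild-type and Tug1-/- means were 151 and 161 TPM in testes, 140 and 137 in brain, 110 and 112 in MEFs, 109 and 105 in eyes, 104 and 95.7 in spleen, 51.8 and 59.0 in prostate, 27.5 and 30.7 in liver, and 26.3 and 29.2 in heart. The order of the tissues was therefore the same in both genotypes, and the log2 ratio of the sum stayed between -0.12 in spleen and 0.19 in prostate.

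Setdb1, which writes H3K9me3, had its highest wild-type mean in testes, at 37.4 TPM. Eyes followed at 30.3 TPM, spleen at 30.0, brain at 27.2, MEFs at 24.2, prostate at 21.8, liver at 9.30 and heart at 6.15. In Tug1-/- mice, taken in that order, the means were 39.2, 28.7, 29.7, 27.6, 29.3, 22.1, 9.62 and 7.57 TPM. Eyes and spleen overlapped between genotypes, as did brain and MEFs.

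Atf7ip, the stabiliser of SETDB1, was ordered differently. It was highest in eyes, at 31.9 TPM in wild type and 28.8 in Tug1-/-, and in spleen, at 31.1 and 30.4 TPM. The wild-type and Tug1-/- means were 19.3 and 18.0 TPM in brain, 16.3 and 18.6 in MEFs, 14.0 and 14.4 in testes, 9.13 and 9.17 in prostate, 8.57 and 10.1 in heart, and 3.31 and 3.25 in liver. Setdb1 exceeded Atf7ip by 2.81-fold in liver and 2.67-fold in testes, whereas Atf7ip was the higher one in heart, eyes and spleen, at ratios of Setdb1 to Atf7ip of 0.717, 0.951 and 0.964.

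Trim28, the KRAB corepressor, was the most abundant of the 9 genes in every tissue and genotype. Testes held 279 TPM in wild type and 291 in Tug1-/-, which placed Trim28 623rd among the 21805 genes of at least 1 TPM in wild-type testes. MEFs had 219 and 266 TPM, spleen 119 and 132, prostate 111 and 117, eyes 110 and 102, brain 94.7 and 96.9, liver 30.7 and 33.4, and heart 26.4 and 32.0. Its excess over Setdb1 ran from 3.30-fold in liver to 9.06-fold in MEFs in wild type.

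Morc3, the ubiquitous MORC paralog, had its highest level in spleen, with 76.7 TPM in wild type and 68.4 in Tug1-/-. MEFs had 36.3 and 40.0 TPM, eyes 35.0 and 33.2, testes 34.2 and 36.2, brain 24.9 and 23.9, prostate 15.0 and 15.7, liver 8.68 and 10.9, and heart 8.51 and 9.19. Eyes and testes overlapped between genotypes, as did liver and heart.

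Heart and liver were the low end for all 7 broadly expressed members. A member's lowest wild-type tissue was heart for Fam208a, Pphln1, Setdb1, Trim28 and Morc3 and liver for Mphosph8 and Atf7ip. Outside testes these 7 genes were well counted, with mean normalised read counts per tissue from 597 for Morc3 in brain to 10428 for Trim28 in MEFs. TPM is a share of all transcripts, and the liver markers alone summed to 129366 TPM in wild-type liver. Morc2a and Tug1 were likewise lowest in liver and next lowest in heart. How far very abundant transcripts lower the members' TPM in these organs was not tested.

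Morc1 and Morc2b were testis genes. Morc1, the germ-line MORC, averaged 6.17 TPM in wild-type, 6.86 in Tug1-/- and 6.49 in rescue testes. It was at most 0.177 TPM in any other tissue, had no row in liver, and was listed at 0 in Tug1-/- eyes and heart, where its mean normalised read count was 0.584 and 0.548. Morc2b was far more abundant, at 224 TPM in wild-type, 243 in Tug1-/- and 250 in rescue testes, and stood 831st among the genes of wild-type testes. Brain followed with 1.48 TPM in wild type and 1.59 in Tug1-/-, then eyes with 0.416 and 0.414, heart with 0.118 and 0.174, and MEFs with 0.0408 and 0.0203, and no row was listed in liver, prostate or spleen. Outside testes its mean normalised read count lay between 1.28 in MEFs and 27.9 in brain. Testes are in a table of their own, so these levels were set across separately made tables.

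**Figure D1:**
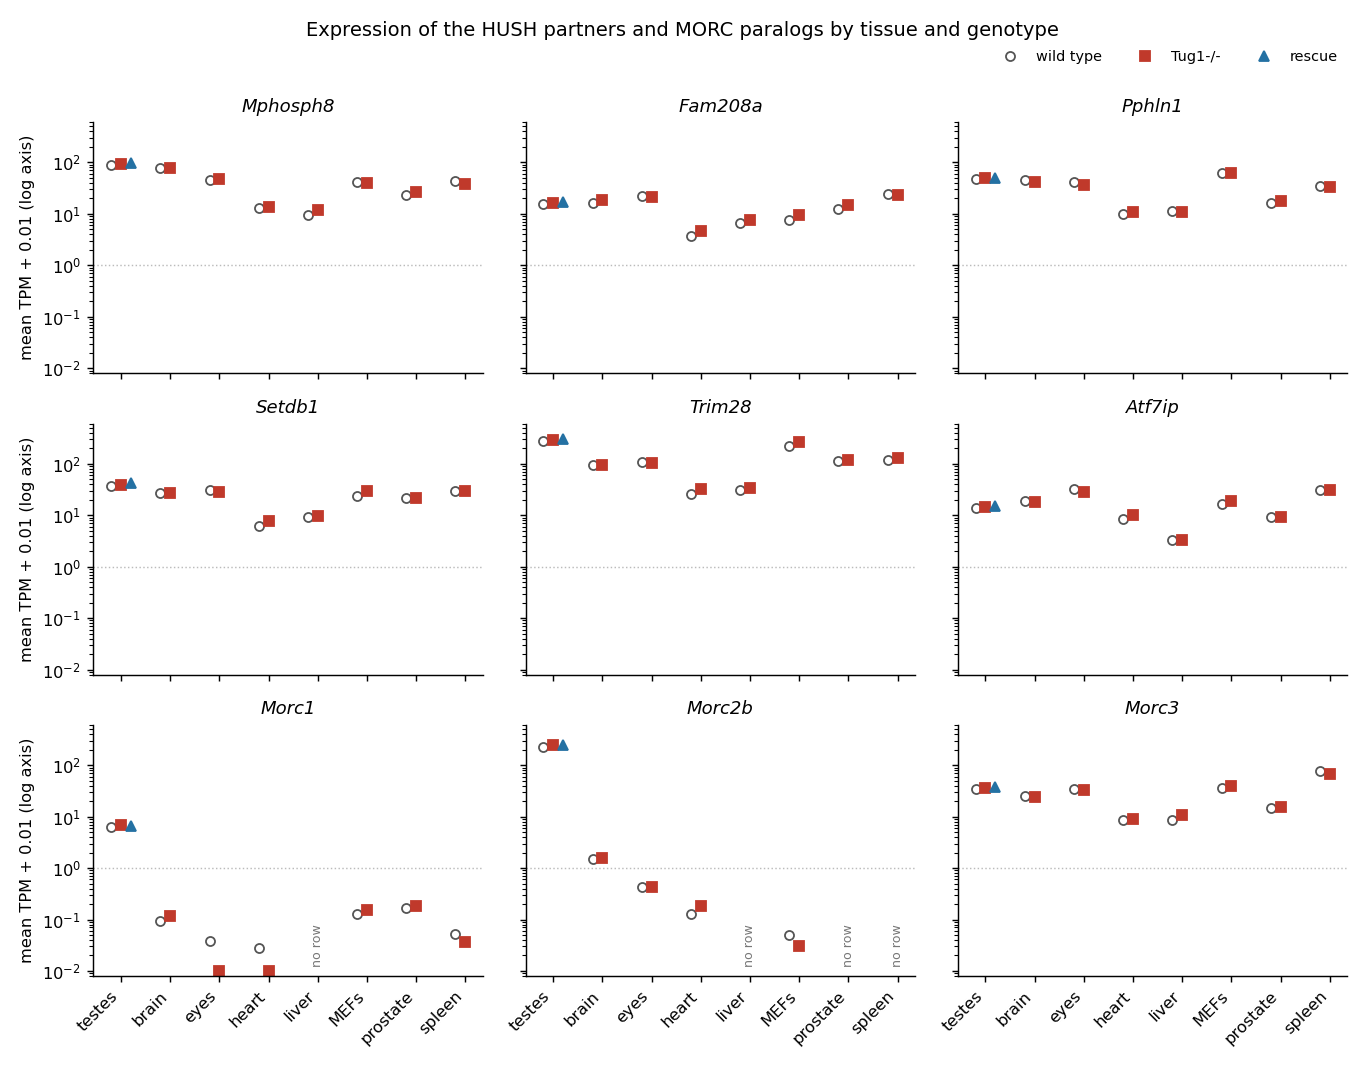
Mean TPM with a small constant added (log axis) of each of the 9 genes in 8 tissues, with open circles for wild type, red squares for Tug1-/- and blue triangles for rescue testes. Each point is the authors' group mean, the dotted line marks 1 TPM, and "no row" marks a gene not listed for that tissue. Symbols of the genotypes lie close together within each tissue for the 7 broadly expressed genes, while Morc1 and Morc2b stand above 1 TPM in testes, and Morc2b also in brain.

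In wild-type testes Morc2b was 4.24-fold higher than Morc2a in TPM and made up 80.9% of the 277 TPM of the MORC2 pair. In Tug1-/- testes the share was 83.7% and in rescue testes 84.4%. Elsewhere Morc2a was the larger of the pair by far: Morc2b made up 4.14% in wild-type and 7.67% in Tug1-/- brain, 0.997% and 1.56% in eyes, 1.14% and 2.40% in heart, and 0.0795% and 0.0544% in MEFs. Morc2a itself had the lower mean in Tug1-/- mice in each of these tissues. Summed, the pair in brain had 35.7 TPM in wild type against 20.8 in Tug1-/-.

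Because both genes encode MORC2 proteins, their sequences were compared to see whether reads could be exchanged between them. In the GENCODE vM21 models the Morc2b coding sequence of 3066 bases sits in 1 exon and that of Morc2a, 3090 bases, in 26 exons. Of 3056 aligned bases 2445 were identical, that is 80.0%, and the longest run shared exactly was 38 bases. The Morc2b coding sequence holds 2967 windows of 100 bases, just under the read length, of which 0 occurred in the Morc2a transcript. The stretch around that longest run is shown with differing bases in capitals, on the coding strand, for Morc2b at chr17:33137597-33137684 (minus strand, exon 2) and Morc2a at chr11:3679695-3679782 (plus strand, exon 13), both in GRCm38.
Morc2b: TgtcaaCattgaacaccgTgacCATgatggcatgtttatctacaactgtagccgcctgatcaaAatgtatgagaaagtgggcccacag
Morc2a: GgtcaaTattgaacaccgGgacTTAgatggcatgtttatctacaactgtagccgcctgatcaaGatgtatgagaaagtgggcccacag
Even around the longest shared run 7 of 88 bases differed, and since only uniquely mapped reads were counted, an error-free read of 100 bases from Morc2b coding sequence could be told from Morc2a.

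Other members share bases with genes on the opposite strand, and the library kit does not mark strand. Setdb1 shares 1073 bases with Gm37500, 194 with Gm42578 and 75 with Cers2, Mphosph8 1151 with Gm16973, Fam208a 2466 with Ccdc66, Trim28 6137 with Zbtb45 and Atf7ip 4056 with Gm44140. In wild-type testes the overlapping genes were at 28.6 TPM for Ccdc66, above Fam208a, and at 22.7 for Gm16973, 20.5 for Cers2, 17.8 for Gm44140, 2.21 for Zbtb45, 1.06 for Gm42578 and 0.488 for Gm37500. Cers2 was lowest in testes and reached 241 TPM in wild-type liver, where Setdb1 was at 9.30. How reads in shared bases were assigned is not given in the sources used here, so the levels of these 5 members may hold reads of their neighbours or lack their own. Gm44140 had a row in testes, eyes and spleen, and was at 0.241 TPM or less in the latter tissues. Pphln1, Morc1, Morc2b and Morc3 overlap no listed gene.

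Across tissues the 7 broadly expressed members varied together. Over the 17 group means, Pearson's r of log2(mean TPM + 0.1) between members ranged from 0.57 for Trim28 and Atf7ip to 0.92 for Setdb1 and Trim28. Its mean was 0.78 over the 21 pairs. Over all pairs of the 16399 genes listed in every tissue and at 1 TPM or more in some group it was 0.21. That background takes in genes under 1 TPM in some tissues, whereas the 7 members were at 1 TPM or more in all 8. The means are therefore not like for like, and varying together is not shown to be particular to the members. Both genotypes of a tissue count as points here and share a pipeline, a tissue and its depth, so r describes the tissue pattern and was not tested. The genes most like Mphosph8 were Ylpm1 at r = 0.99, Rrp1 at 0.99 and Pdpk1 at 0.99. For Fam208a they were Arsk at 0.96, Rbm48 at 0.96 and Edrf1 at 0.95, and for Pphln1 they included Trrap and Slc39a6, each at 0.98. Setdb1 was followed most closely by Ddx46 at 0.99, Gigyf2 at 0.98 and S100pbp at 0.98, and Trim28 by Ube2j2, Tex10 and Sec23ip, each at 0.99. Nearest to Atf7ip were 2810002D19Rik at 0.99, Gm45501 at 0.98 and Rbm4 at 0.98, and nearest to Morc3 were Cdk12 at 0.99, Setd2 at 0.98 and Cdk13 at 0.98. Morc1 and Morc2b, which have no row in some tissues, were left out of this comparison.

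Deletion of Tug1 was accompanied by no large difference in any member. Of 59 pairs of a member and a tissue that could be compared, 0 differed by more than 1.5-fold, compared with 6.03% of all 130180 gene and tissue pairs, and the widest was 1.26-fold. Higher in Tug1-/- were 40 of the 59 and lower 19, when 49.8% of all pairs were higher. The median absolute log2 ratio of those pairs was 0.10, and that of all pairs was 0.12. A difference of more than 1.2-fold was found in 9 of the 59 pairs and in 22.4% of all pairs. Staying within 1.5-fold is common, since 89.7% of the 9587 genes compared in all 8 tissues did so throughout, as did the 7 broadly expressed members. Of the 7, Trim28 was higher in Tug1-/- in 7 of 8 tissues, Fam208a and Setdb1 in 6, Mphosph8 and Morc3 in 5, and Pphln1 and Atf7ip in 4. Of those 9587 genes, 20.6% were higher in at least 6 tissues and 6.46% in at least 7. Against the median gene, Fam208a and Trim28 were higher in 8 of 8 tissues, as were 2.07% of genes, Setdb1 in 7, as were 9.54% in at least 7, Morc3 in 6, Mphosph8 in 5, and Pphln1 and Atf7ip in 4. For Trim28 the count of 8 rests on eyes, at 0.0014. After rescaling without the 100 most abundant genes Trim28 was at -0.06 there. Small ratios depend on scaling: some members in brain, eyes, heart, MEFs, prostate and spleen changed sign when ratios were set against the median gene or rescaled, and they are named with each tissue.

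In testes, 0 of 9 members differed by more than 1.5-fold, compared with 5.24% of 21813 genes. All 9 were slightly higher in Tug1-/-, as were 62.1% of genes, with log2 ratios from 0.04 for Atf7ip to 0.15 for Morc1. Morc2b stood at 0.12, Pphln1 and Mphosph8 at 0.10, Fam208a and Morc3 at 0.08, Setdb1 at 0.07 and Trim28 at 0.06. The median of the 9 was 0.08, compared with 0.03 over all genes, and each remained above 0 when set against the median gene.

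The rescue comparison asks whether transgenic Tug1 RNA returns expression toward wild type. Against Tug1-/- testes 0 of 9 differed by more than 1.5-fold, compared with 3.6% of 21606 genes and 2.23% of the protein-coding ones, with log2 ratios, rescue over Tug1-/-, from -0.08 for Morc1 to 0.12 for Setdb1. Rescue means were 98.5 TPM for Mphosph8, 16.7 for Fam208a and 49.2 for Pphln1. For the SETDB1 arm they were 42.5 TPM for Setdb1, 15.4 for Atf7ip and 305 for Trim28, and Morc3 had 36.9. For 7 of the 9 genes the rescue mean lay above both other groups, as it did for 42.6% of genes, and for Morc1 and Pphln1 it lay between them. Both ratios share the Tug1-/- libraries and are given side by side for that reason.

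**Figure D2:**
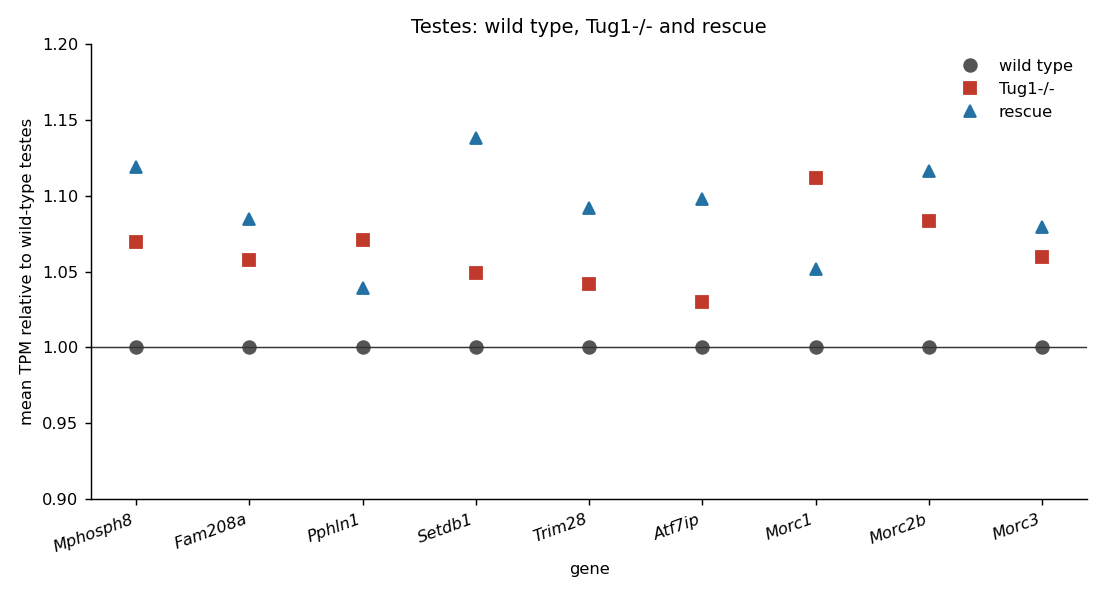
Mean TPM of the 9 genes in Tug1-/- (red squares) and rescue testes (blue triangles) relative to wild-type testes (grey circles, set to 1), on a linear axis that does not start at 0. Points are the authors' group means, shown without an error. Every red and blue symbol lies above 1, the blue one higher than the red except for Pphln1 and Morc1.

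Germ-cell lists in the same testes had medians on either side of 0, with ranges that overlapped. The 7 spermatocyte genes, meiotic genes such as Sycp1 and Spo11, had Tug1-/- over wild-type log2 ratios from 0.05 to 0.14 with a median of 0.08, and their summed level was 867 TPM in wild type, 934 in Tug1-/- and 966 in rescue. The 7 spermatid genes, led by the protamines, summed to 52381, 49712 and 48451 TPM with a median of -0.06. Spermatogonial genes summed to 794, 797 and 850 TPM with a median of 0.01, and 1 of its 7 genes passed 1.5-fold, Gfra1, a stem-cell receptor named here after its values were seen, at 11.1 TPM in wild type and 3.84 in Tug1-/-. Genes of Leydig cells, the cells that make androgen, summed to 519, 786 and 585 TPM and were higher in Tug1-/- in 6 of 6. Their median was 0.65, and 3 passed 1.5-fold. These were Insl3 at 1.33, Cyp11a1 at 0.81 and Star at 0.73, named here after their values were seen. Sertoli-cell genes summed to 1157, 1250 and 1293 TPM, higher in 6 of 7 with a median of 0.34 and 0 past 1.5-fold. Macrophage genes summed to 77.6, 104 and 92.8 TPM, higher in 6 of 6 with a median of 0.37 and with Cd14, also chosen after its value was seen, past 1.5-fold at 0.62. Seminal vesicle secretory genes, which mark a neighbouring gland, summed to 10.3, 14.9 and 16.2 TPM and were higher in 4 of 4. None of these marker genes was listed at 0 in wild-type or Tug1-/- testes. The part of cell composition in the members' values was not tested.

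In brain, 0 of the 8 members with a ratio passed 1.5-fold, compared with 4.72% of 17244 genes and 1.26% of the protein-coding ones. Fam208a was highest at a log2 ratio of 0.20, a difference exceeded in size by 19.6% of genes, and Pphln1 lowest at -0.16. Trim28 at 0.03, Setdb1 at 0.02, Morc2b at 0.10, Mphosph8 at -0.02, Morc3 at -0.06 and Atf7ip at -0.10 lay between, and Mphosph8 turned to 0.01 against the median gene. Among the core subunits, the scaffold and the RNA-binding subunit thus stood at opposite ends. Macrophage genes summed to 116 TPM in wild-type and 121 in Tug1-/- brain, with 4 of 6 higher and none at 0.

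In eyes, 0 of 7 passed 1.5-fold, compared with 6.66% of 19203 genes and 4.06% of the protein-coding ones. The median gene was shifted by -0.11, and the members' median of -0.08 became 0.02 when set against it. Mphosph8 was at 0.03, Fam208a at -0.03, Setdb1 and Morc3 at -0.08, Trim28 at -0.10, and Pphln1 and Atf7ip at -0.15. Relative to the median gene, Pphln1 and Atf7ip remained lower, at -0.04 each, while Mphosph8 stood at 0.14, Fam208a at 0.07, Morc3 at 0.03, Setdb1 at 0.02 and Trim28 at 0.0014. Macrophage genes summed to 685 TPM in wild-type and 879 in Tug1-/- eyes, with 6 of 6 higher, a median of 0.29 and none at 0, and their part in these values was not tested.

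Heart, the tissue with the lowest levels of 5 members, had the highest median ratio as deposited, but MEFs were higher against the median gene, at 0.14 compared with 0.13, and after rescaling without the 100 most abundant genes, at 0.16 compared with 0.11. There 0 of 7 passed 1.5-fold, compared with 3.49% of 13701 genes and 2.13% of the protein-coding ones, but all 7 were higher in Tug1-/-, as were 75.3% of genes, with a median log2 ratio of 0.23 when the median gene stood at 0.10. Fam208a and Setdb1 were at 0.30, Trim28 at 0.27, Atf7ip at 0.23, Pphln1 at 0.17, Morc3 at 0.11 and Mphosph8 at 0.08. Relative to the median gene, Fam208a and Setdb1 remained at 0.19, Trim28 at 0.17, Atf7ip at 0.13 and Pphln1 at 0.07, while Morc3 was at 0.01 and Mphosph8 at -0.02, and after rescaling without the 100 most abundant genes Morc3 and Mphosph8 both lay below 0. Of all genes in heart, 13.3% differed more than Fam208a in size. Macrophage marker genes summed to 448 TPM in wild-type and 518 in Tug1-/- heart, with 6 of 6 higher and none at 0. The lymphocyte and leukocyte genes Cd79a, Cd3e and Ptprc, which are among the spleen markers, went the other way in heart, summing to 16.99 TPM in wild type and 9.42 in Tug1-/-, with 0 of 3 higher and none at 0. The part of either list in the members' values was not tested.

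Liver held the widest differences of all. Mphosph8 was at 9.45 TPM in wild type and 11.9 in Tug1-/-, a log2 ratio of 0.33 or 1.26-fold, and Morc3 at 8.68 and 10.9 TPM, a log2 ratio of 0.32. With those, 0 of 7 members passed 1.5-fold, compared with 5.22% of 11849 genes, and 15.5% of genes differed more than Mphosph8 in size. Fam208a followed at 0.19, Trim28 at 0.12 and Setdb1 at 0.05, whereas Pphln1 at -0.04 and Atf7ip at -0.02 were lower. Macrophage genes summed to 159 TPM in wild-type and 252 in Tug1-/- liver, with 6 of 6 higher, 3 of them past 1.5-fold and none at 0. The fibroblast markers Col1a1, Col1a2, Postn and Thy1 were higher in 4 of 4, with a median of 0.30 over the 3 with a ratio. The part of either list in the members' values was not tested.

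In MEFs the SETDB1 arm and the scaffold were the higher ones. Fam208a had a log2 ratio of 0.29, Trim28 and Setdb1 of 0.28, Atf7ip of 0.19 and Morc3 of 0.14, whereas the remaining core subunits were level, Pphln1 at 0.01 and Mphosph8 at -0.02. Here 0 of 7 passed 1.5-fold, compared with 6.43% of 14450 genes, and 22.5% of genes differed more than Fam208a in size. Pphln1 turned to -0.04 against the median gene. Macrophage genes summed to 307 TPM in wild-type and 463 in Tug1-/- MEFs, with 3 of 6 higher and none at 0. Past 1.5-fold were 4 of them, 3 higher and 1 lower, and their part was not tested here either.

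In prostate, 0 of 7 passed 1.5-fold, compared with 6.72% of 15110 genes and 4.37% of the protein-coding ones, and each Tug1-/- value rests on 2 mice. Fam208a at 0.28 and Mphosph8 at 0.22 led, and the other members lay between 0.01 for Atf7ip and 0.07 for Trim28 and Pphln1. Atf7ip turned to -0.03 and Setdb1 to -0.02 against the median gene. Seminal vesicle secretory genes summed to 19917 TPM in wild-type and 59329 in Tug1-/- prostate, with 3 of 4 higher and none at 0. Macrophage genes summed to 165 and 255 TPM with 6 of 6 higher, 3 of them past 1.5-fold. Liver marker genes, of which 2 of 4 had a row, summed to 8.22 TPM in wild-type and 62.8 in Tug1-/- prostate, both higher, and the fibroblast markers Col1a1, Col1a2, Postn and Thy1 were higher in 4 of 4 with a median of 0.31. Their part in the members' ratios was not tested.

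Spleen showed the lowest ratio of any member as deposited, whereas against the median gene the lowest was that of Pphln1 in brain, at -0.13. Mphosph8 was at 44.3 TPM in wild type and 38.4 in Tug1-/-, a log2 ratio of -0.21, and Morc3, which is most abundant in this organ, at -0.17. Of the 7 members 0 passed 1.5-fold, compared with 9.36% of 16810 genes, the largest background share of the 9 comparisons. Fam208a at -0.06, Pphln1 at -0.05, Atf7ip at -0.03 and Setdb1 at -0.01 were also lower, and only Trim28 was higher, at 0.15. The median gene was shifted by -0.11 in spleen, so that relative to it Trim28 stood at 0.25, Setdb1 at 0.10, Atf7ip at 0.07, Pphln1 at 0.06 and Fam208a at 0.05, and Mphosph8 at -0.10 and Morc3 at -0.06 remained lower. Macrophage genes summed to 5758 TPM in wild-type and 5373 in Tug1-/- spleen, with 1 of 6 higher and none at 0, and Cd79a, Cd3e and Ptprc to 1600 and 1205 TPM, with 1 of 3 higher. The fibroblast markers Col1a1, Col1a2, Postn and Thy1 were lower in 4 of 4, with a median of -0.26. Liver marker genes (Alb, Ttr, Apoa1 and Cyp2e1) summed to 23.0 TPM in wild-type and 1.28 in Tug1-/- spleen, with 4 of 4 lower, all past 1.5-fold, a median log2 ratio of -3.89 and none at 0. The part of these lists in the members' values was not tested.

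**Figure D3:**
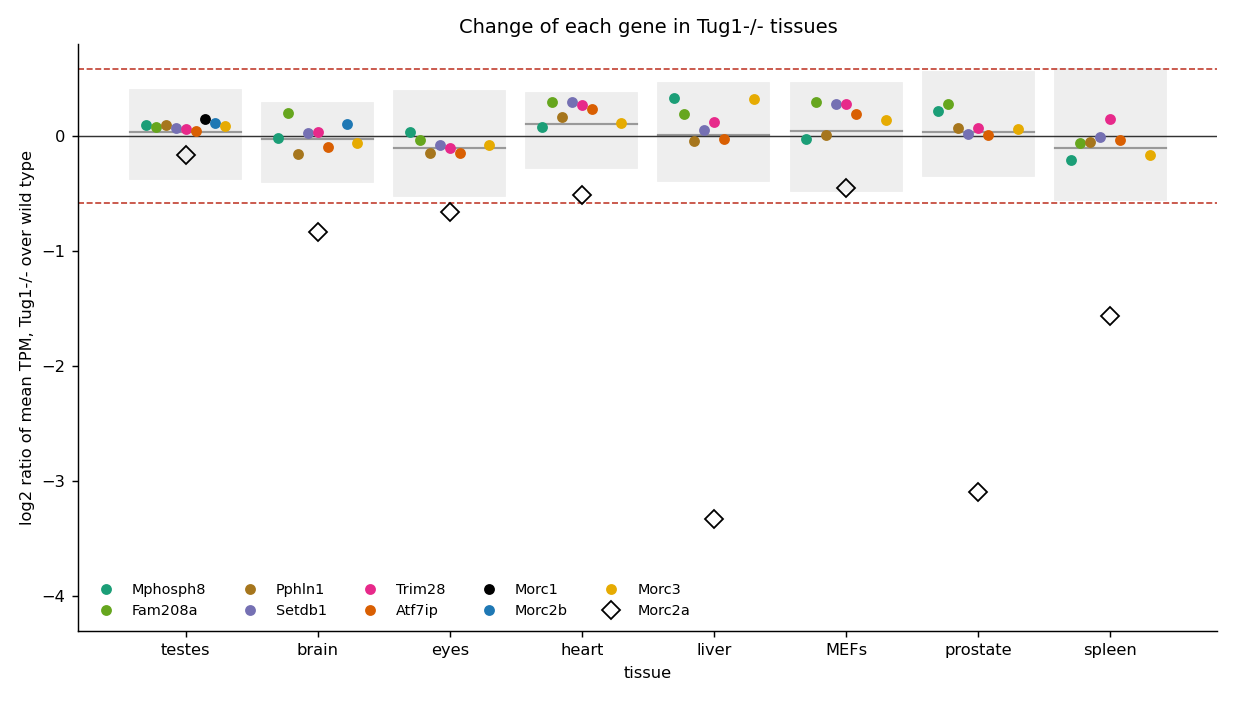
Log2 ratio of mean TPM, Tug1-/- over wild type, for the members compared in each of 8 tissues (coloured points), with Morc2a as an open diamond. Grey boxes span the 5th to the 95th percentile of all genes compared, grey bars their median, and dashed lines 1.5-fold. Members lie between -0.21 and 0.33, inside both dashed lines, whereas Morc2a lies at -3.33 in liver. Some members in brain, eyes, heart, MEFs, prostate and spleen, at most 0.11 from 0 as deposited, change sign with the scaling.

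The contrast with Morc2a gives a scale for these values. Its log2 ratio was -3.33 in liver, -3.09 in prostate, -1.57 in spleen, -0.83 in brain and -0.66 in eyes, all past 1.5-fold, and -0.51 in heart, -0.46 in MEFs and -0.16 in testes. In liver Morc2a averaged 6.36 TPM in wild type and 0.541 in Tug1-/-, while the HUSH core summed to 27.5 and 30.7 TPM. Of its paralogs, Morc1 and Morc2b had no row in liver, and Morc3 was at 8.68 and 10.9 TPM. Outside testes and brain, Morc2b stayed under 1 TPM in both genotypes wherever it was listed.

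A list of 20 other genes of H3K9 methylation and heterochromatin was followed for comparison. It holds H3K9 methyltransferases (Suv39h1, Suv39h2, Ehmt1, Ehmt2, Setdb2), HP1 proteins (Cbx1, Cbx3, Cbx5) and factors of DNA methylation and histone deposition such as Dnmt1, Uhrf1, Atrx and Daxx. Genes past 1.5-fold numbered 1 of 17 in heart, 1 of 19 in MEFs and 1 of 18 in spleen, and 0 elsewhere, out of 20 in testes (in either comparison), 19 in brain, 19 in eyes, 15 in liver and 18 in prostate. In heart it was 2810474O19Rik, a retroelement silencing factor, at 5.93 TPM in wild type and 9.02 in Tug1-/-. In MEFs Atrx, a chromatin remodeller that deposits histone H3.3 with Daxx, had 28.5 TPM in wild type and 18.0 in Tug1-/-. In spleen Uhrf1, the cofactor of Dnmt1 in maintenance methylation, had 39.3 TPM in wild type and 67.5 in Tug1-/-. In lists of this size, and with the background shares given for each tissue, counts of 0 or 1 are no result about the list.

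The median log2 ratio of the list was 0.12 in heart, where that of the members was 0.23, and 0.10 in MEFs, where theirs was 0.19. For liver the medians of list and members were 0.08 and 0.12, for testes 0.05 and 0.08, for prostate 0.03 and 0.07, for spleen 0.03 and -0.05, for brain -0.02 and 0.0043, and for eyes -0.09 and -0.08. Against the median gene, the list's median turned sign in brain, eyes and prostate, to 0.0036, 0.01 and -0.0057, and the members' in eyes and spleen, to 0.02 and 0.06. The ends of this longer list were -0.66 for Atrx in MEFs and 0.78 for Uhrf1 in spleen, but its median absolute log2 ratio was smaller than that of the members in 6 of 8 tissues, and in brain its range was the narrower one. In testes the list ran from -0.33 for Morc4, a further MORC paralog at 1.59 TPM in wild type and 1.24 in Tug1-/-, to 0.37 for 2810474O19Rik. Both of these fell outside the range of the 9 members in testes.

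**Figure D4:**
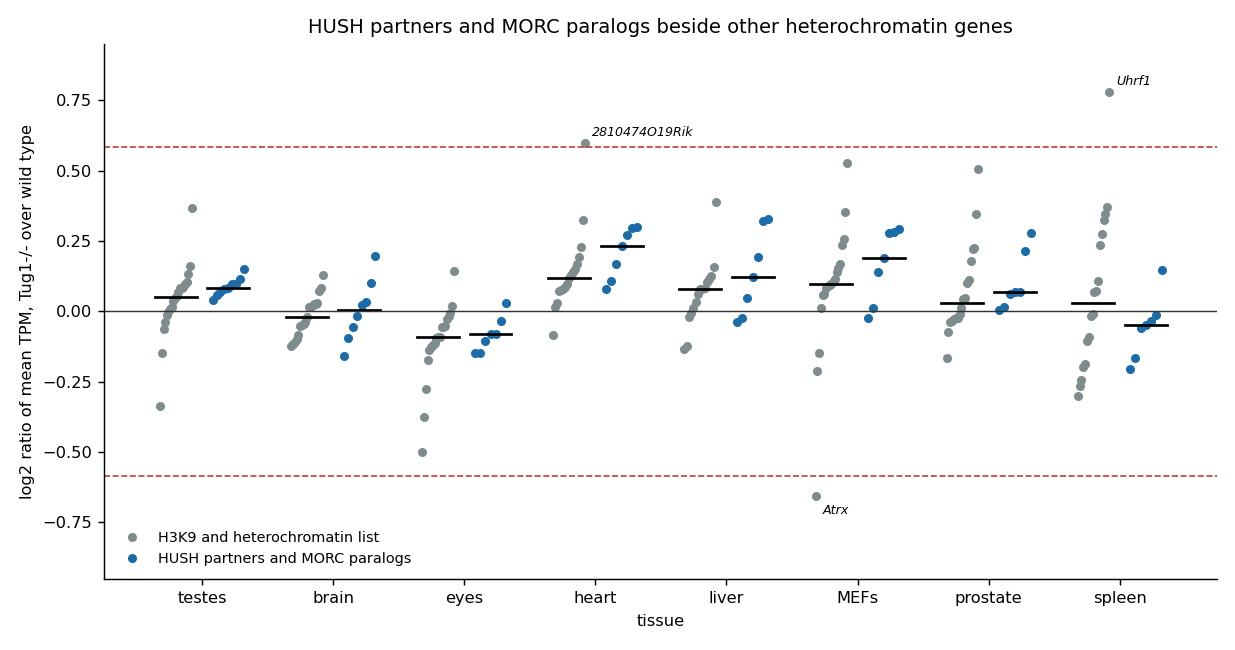
Log2 ratio of mean TPM, Tug1-/- over wild type, in 8 tissues for the 20 H3K9 and heterochromatin genes (grey) and for the HUSH partners and MORC paralogs (blue), each gene a point and each black bar a median. Dashed lines mark 1.5-fold, and the 3 genes past it are named. Blue points lie between -0.21 and 0.33, and grey points, which are more numerous, between -0.66 and 0.78, with the narrower range in brain. Set against the median gene, the blue medians change sign in eyes and spleen and the grey ones in brain, eyes and prostate.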

How the data were processed

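RNA-seq libraries (TruSeq RNA Sample Preparation Kit v2, paired-end reads, pools of 6 holding both genotypes) were mapped by the authors to GRCm38 (mm10) with STAR and GENCODE vM16, and uniquely mapped reads per gene were counted with featureCounts. The submitters' processing notes also name CASAVA 1.8.2. The authors dropped genes whose counts stayed under 3 in all replicates, so a gene can lack a row in a tissue. The deposited tables hold the authors' mean TPM per genotype and, outside testes, a mean normalised read count per tissue, a coverage signal scaled between libraries. Per-sample values and depth are not in the columns used here, so 0 per-sample columns were used, and no interval, replicate spread or p-value is given. Per-sample tests laid out for counts or TPM were therefore not run. The tables' other columns hold the authors' own comparisons (moderated log2 fold change, standard error, Wald statistic, p-value, adjusted p-value, log2 ratio of mean TPM and a significance label) and were not used. The descriptions of the samples name the testes table and the table of other tissues the other way round, and the tables were read by their contents.

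From the group means, log2((mean TPM + 0.1)/(mean TPM + 0.1)) was computed for every gene with an average of at least 1 TPM, and members were counted past 1.5-fold beside all genes tested. The members and gene lists were chosen with earlier results of these data known. Genes named by rule are the 9 members, Morc2a and Tug1, genes of the H3K9 list past 1.5-fold or at either end in testes, and for each member the 3 genes with the highest Pearson r, of which 1 is not reported here. Overlapping genes, and marker genes as examples of their lists, are named outside that rule. The ratio step was tested on simulated data. Alternatives were pseudocounts of 0.01 and 1 TPM, no filter, a filter at 5 TPM, centring, rescaling without the 100 most abundant genes, thresholds at a log2 ratio of 0.32 and at 2-fold, protein-coding genes alone, and the members without Morc1 and Morc2b. Promoter windows came from RefSeq (GRCm38.p6), and coding sequences from GENCODE vM21, a later release than the authors'. Coding sequences were aligned globally with Biopython 1.88. Python 3.11.15, numpy 2.4.6, pandas 2.3.3 and matplotlib 3.10.9 were used.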

Additional observations from a re-analysis of the deposited data

How the results depend on the processing

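The count of members past 1.5-fold remained 0 in all 9 comparisons under each alternative run at that threshold and at 2-fold. At a log2 threshold of 0.32 the count in liver was 2 (Mphosph8 and Morc3), beside 16.3% of all genes there, and 0 in the other 8 comparisons. Setting ratios against the median gene moved them by at most 0.11 (log2) and turned the sign of 13 of 68 member ratios. Rescaling without the 100 most abundant genes moved ratios by at most 0.12 and turned 7 of 68. The widest ratio turned was that of Morc3 in heart, at 0.11 as deposited. The median absolute log2 ratio of the member and tissue pairs was 0.10. The members' median turned from -0.08 to 0.02 in eyes and from -0.05 to 0.06 in spleen against the median gene. A pseudocount of 1 TPM moved ratios by at most 0.05. Among protein-coding genes alone, the background share past 1.5-fold was 1.26% in brain and 6.81% in spleen, the lowest and the highest of the 9 comparisons, and 2.23% for rescue over Tug1-/-.

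No paired analysis was possible because the columns used here hold group means, with no value of a single replicate. Leaving out single replicates was not run for the same reason. The group means limit every statement to differences between means. How far a value differs from mouse to mouse is not given by the columns used here, nor is depth. The prostate means of Tug1-/- rest on 2 mice.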
